A study of Mus musculus with 8 samples.

Results

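Insulin-like growth factors (IGFs), their receptors and their binding proteins were examined in the left and right heart fields of the mouse embryo. The 10 genes, of 48526 in the count table, were the ligands *Igf1* and *Igf2*, the receptors *Igf1r* and *Igf2r*, and the binding proteins *Igfbp2*, *Igfbp3*, *Igfbp4*, *Igfbp5*, *Igfbp7* and *Igfbpl1*. They were chosen by the left and right values of *Igfbpl1*, which was lower on the left than on the right in every embryo, so that its side difference is a description and was given no test. All libraries came from wild-type male embryos of the C57bl6/J strain at stage E8.5f, with no treatment, and the groups differed only in the side of the body. The heart tube and dorsal tissues were not part of the sample, which reached along the body axis from the headfolds to the somite in the second position and was split into its left and right sides. Each of the 4 embryos, L29-3, L43-5, L46-8 and L49-3, gave a left and a right library of poly-A RNA, and embryos were not pooled. The study asked which genes, aside from the *Nodal* pathway, are asymmetric in heart progenitors when the heart begins to loop.

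IGF1 and IGF2 are secreted growth factors that promote growth of the embryo through the receptor tyrosine kinase IGF1R. IGF2R, which also carries mannose 6-phosphate tagged enzymes, takes up IGF2 for degradation in lysosomes. The IGF binding proteins hold the ligands outside the cell and can either limit or prolong their action. *Igf2* is expressed from the paternal allele and *Igf2r* from the maternal allele in most mouse tissues. In the early embryo *Igf2* is abundant in mesoderm, whereas *Igfbpl1* is best known from the developing nervous system.

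The total count was between 1147446 and 3520753 per library (median 1916167), and values are given as CPM, counts of a gene relative to the library's total after TMM scaling. A count of 0 allows up to 3 reads, which is 0.844 CPM in the largest library and 2.65 CPM in the smallest, for counting error only. Genes entered the tests when 4 or more libraries reached 20 normalized counts, and 1 of these 9744 passed an adjusted p of 0.05 for left against right (0.0103%) in edgeR's quasi-likelihood test blocked by embryo. The 8 markers of the second heart field, which is the source of cells added to the heart tube, summed to between 388 and 557 CPM. Genes listed as markers of other cell types had reads as well. Those of cardiomyocytes summed to between 374 and 2987 CPM and those of the neural tube to between 324 and 735 CPM. Such sums do not by themselves show which cells were present. In such bulk tissue, fewer cells of a type and less RNA per cell cannot be told apart.

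The 6 binding proteins examined here share a motif of closely spaced cysteines in the amino-terminal domain that holds the ligand. It is shown here because *Igfbpl1*, the gene with the side difference, holds it too, although it is not specific to the family. Each line gives the coding strand of 8 codons from 5′ to 3′, with the 4 cysteine codons in capitals, and each stretch lies within 1 coding exon of the GENCODE vM21 annotation of GRCm38.
Igfbp2: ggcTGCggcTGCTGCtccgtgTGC
Igfbp3: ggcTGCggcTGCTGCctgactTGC
Igfbp4: ggcTGCggtTGTTGCgccactTGC
Igfbp5: ggcTGTggcTGCTGCatgactTGC
Igfbp7: gcgTGCgggTGCTGCccggtgTGT
Igfbpl1: gagTGCggcTGCTGCgcgcgcTGC
The first codon shown is glycine in *Igfbp2*, *Igfbp3*, *Igfbp4* and *Igfbp5*, and differs in *Igfbp7* and *Igfbpl1*. The stretches are at chr1:72824778-72824801 (plus strand) for *Igfbp2*, chr11:7213566-7213589 (minus) for *Igfbp3*, chr11:99041650-99041673 (plus) for *Igfbp4*, chr1:72873966-72873989 (minus) for *Igfbp5*, chr5:77407826-77407849 (minus) for *Igfbp7* and chr4:45826611-45826634 (minus) for *Igfbpl1*. They begin between codons 51 and 68 of the coding sequence. The pattern of cysteine codons with any first codon was found in 34 of 21782 genes with a complete coding sequence (0.156%), and with a glycine codon in front in 18 (0.083%). None of *Igf1*, *Igf2*, *Igf1r* and *Igf2r* held it.

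Levels of different genes were compared as CPM per kilobase of exon, averaged over both sides of an embryo. *Igf2* stood first of the family at 590.8 ± 97.7 (SD, n = 4 embryos), and ranked 44 among the 9744 genes tested by this measure and 8 by reads alone. *Igf1*, the other ligand, was at 1.67 ± 0.362, and the ratio of *Igf2* to *Igf1* was between 266 and 506 in the 8 libraries. Nearly all ligand RNA in this tissue was therefore *Igf2*.

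**Figure D1:**
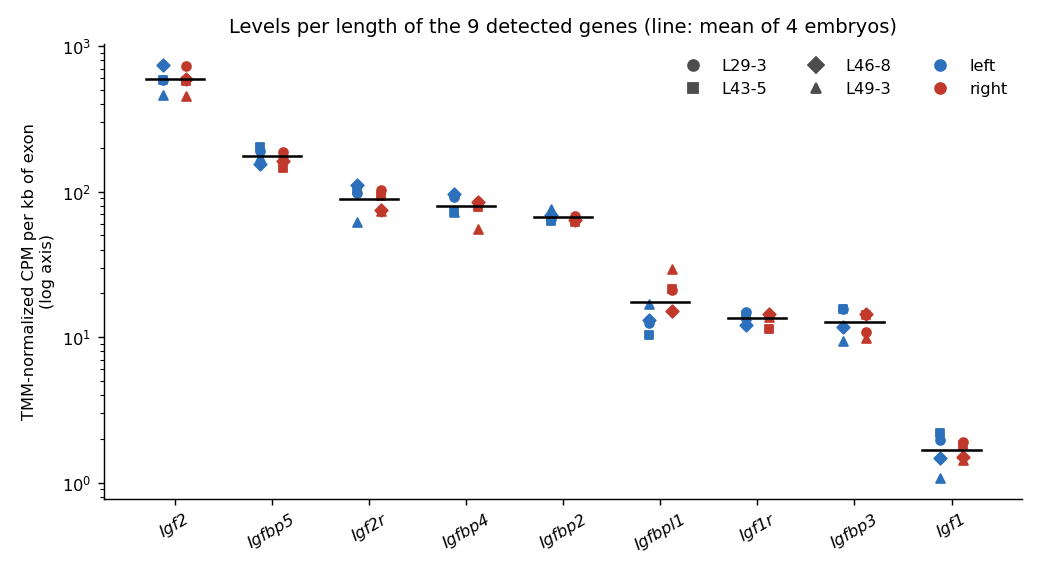
Level of 9 genes of the IGF family in TMM-scaled CPM per kilobase of exon, on a log axis, with a point for each of the 8 libraries and the mean over 4 embryos. *Igf2* is the highest in all 8 libraries, *Igf1* the lowest, and *Igfbpl1*, *Igf1r* and *Igfbp3* overlap.

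Among the receptors, *Igf2r* was at 89.6 ± 15.0 per kilobase and *Igf1r* at 13.6 ± 0.739 (SD, n = 4 embryos). *Igf2r* was between 4.42 and 9.17 times as high as *Igf1r*, and *Igf1r* was between 1.62 and 2.63 times as high as *Insr*, which encodes the insulin receptor. The ratio of *Igf2* to *Igf2r* was between 5.71 and 7.92 in the 8 libraries.

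*Igfbp5*, a binding protein that associates with extracellular matrix, was the highest of the binding proteins at 174.6 ± 12.5 per kilobase (SD, n = 4 embryos) and made up between 44.6% and 55.5% of their summed level. *Igfbp4* followed at 79.8 ± 12.4 and *Igfbp2* at 66.6 ± 3.63. *Igfbpl1* was at 17.5 ± 3.95 and *Igfbp3*, the main carrier of IGFs in adult serum, at 12.7 ± 2.21. *Igfbp7*, which binds IGFs only weakly, had 3 reads in all 8 libraries and at most 1 in a library, so that it was not detectable at this depth. It did not pass the filter on low counts, which the other 9 genes passed.

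In the order *Igf2*, *Igfbp5*, *Igf2r*, *Igfbp4*, *Igfbp2*, *Igfbpl1*, *Igf1r*, *Igfbp3*, *Igf1* and *Igfbp7*, 5 of 9 neighbouring pairs kept their order in all 8 libraries, the last of them with *Igfbp7* under the detection limit. *Igf2r* was above *Igfbp4* in 6 of 8 libraries, *Igfbp4* above *Igfbp2* in 6, *Igfbpl1* above *Igf1r* in 6 and *Igf1r* above *Igfbp3* in 5, so that these neighbours were not separated. With the length of the longest transcript in place of all exons, *Igfbp2* moved to the third place and *Igf1r* above *Igfbpl1*. Parts of *Igfbp4* of up to 205 bases were at least 90% identical to stretches of 384 other genes with counts, and its level is uncertain to that extent.

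*Igfbpl1* (ENSMUSG00000035551, chromosome 4, 45809468 to 45826923, minus strand, GRCm38) encodes a secreted protein related to the IGF binding proteins. It was at 40.4 CPM on the left and 68.6 on the right side of L29-3, at 33.7 and 69.8 in L43-5, at 42.8 and 49.1 in L46-8, and at 54.7 and 96.1 in L49-3. The right was higher in each embryo, by the least in L46-8, yet the sides overlapped across embryos, since the right of L46-8 was below the left of L49-3. The mean of the left libraries was 42.9 ± 8.76 CPM and that of the right ones 70.9 ± 19.3 (SD, n = 4). The fitted difference, left minus right, was -0.73 on the log2 scale, which is 1.65-fold higher on the right, and the ratios of the single embryos were -0.76, -1.04, -0.19 and -0.81 (SD 0.36). Over all genes tested, 6.1% were lower on the left in all 4 embryos, and 1.42% were lower on the left past the threshold of the study, which asks for a 1.2-fold change or more and an unadjusted p no higher than 0.05. Sides that did not overlap, with the left below, were found for 1.06% of all genes.

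**Figure D2:**
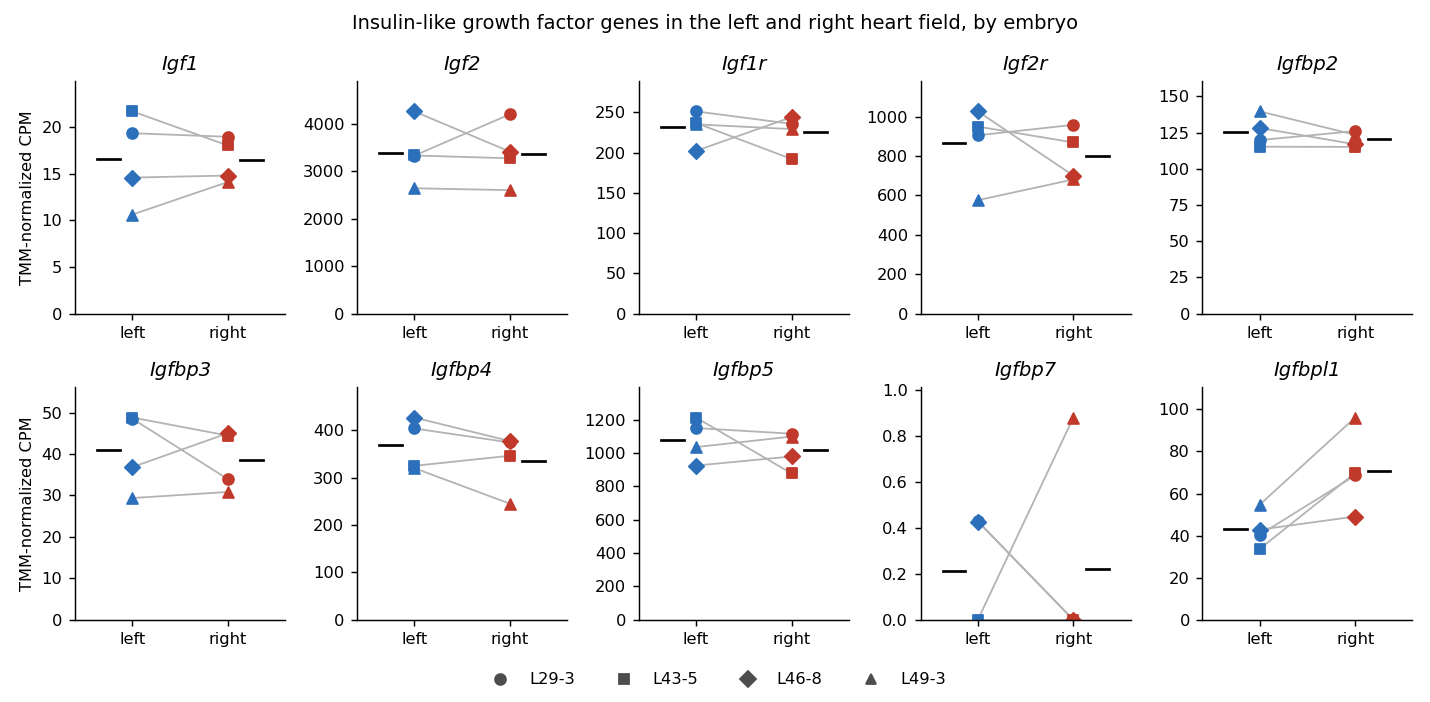
TMM-scaled CPM of each of the 10 genes in the left and right library of each embryo, with a line joining the sides of 1 embryo and a black bar at the mean of each side. For *Igfbpl1* all 4 lines rise from left to right, from 42.9 to 70.9 CPM on average, while the lines of the other genes run in both directions.

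These values rest on between 67 and 248 reads per library. *Igfbpl1* had 94 reads on the left of L29-3 and 105 on its right, 98 and 248 for L43-5, 100 and 73 for L46-8, and 67 and 109 for L49-3. In L46-8 the left library had more reads of *Igfbpl1* but also the larger total, and its scaled value was the lower. Whether the small difference in L46-8 exceeds counting error was not tested.

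The neural tube list moved with *Igfbpl1* in part. Its 10 genes summed to 488 CPM on the left of L29-3 and 396 on the right. The sums were 378 (left) and 520 (right) in L43-5, 324 (left) and 530 (right) in L46-8, and 653 (left) and 735 (right) in L49-3. The list was thus lower on the left in 3 of 4 embryos and higher on the left in L29-3, where *Igfbpl1* was lower on the left. *Msi1* and *Nes*, at means of 184 and 104 CPM, were the largest terms of the sum. *Msi1* was lower on the left in all 4 embryos. *Sox1*, *Sox3*, *Pax6* and *Nes* were lower on the left in 3, and *Sox2* and *Zic2* in 2. Of the 7 tested genes of the list, 2 passed the threshold of the study with lower values on the left, against 1.42% of all genes, and 0 with higher values. The list had a median log2 difference of -0.26, where the median over all genes was -0.00. *Igfbpl1* as a percentage of the summed list was 8.27% on the left of L29-3 and 17.3% on its right, and for L43-5 it was 8.91% and 13.4%. For L46-8 it was 13.2% and 9.26%, and for L49-3 it was 8.38% and 13.1%, with the left first. Relative to the list, *Igfbpl1* was therefore lower on the left in 3 embryos and higher on the left in L46-8. The part of neural tissue in the difference of *Igfbpl1* was not tested.

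**Figure D3:**
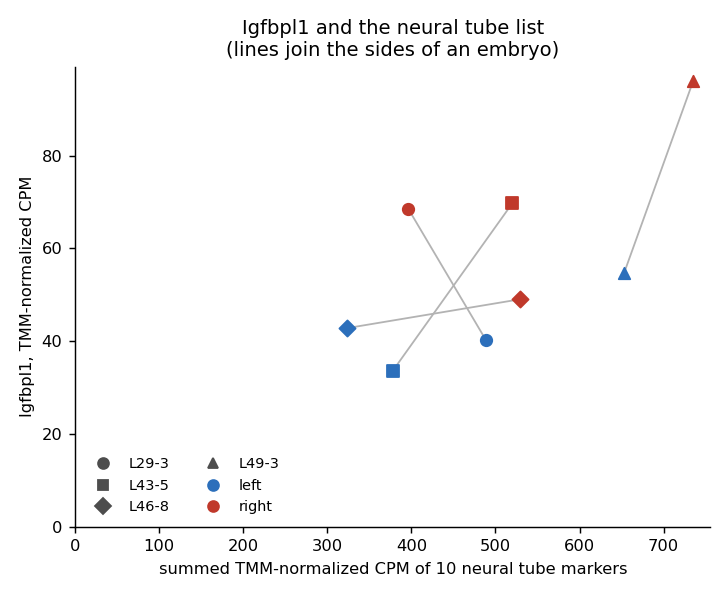
*Igfbpl1* against the summed neural tube list, both in TMM-scaled CPM, with a line joining the left and right library of each embryo. In L29-3 the list falls from 488 to 396 CPM from left to right while *Igfbpl1* rises from 40.4 to 68.6, and in the other 3 embryos both rise.

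Over the 8 libraries, the genes whose log2 CPM was most like that of *Igfbpl1* were *Sept3* (Pearson r = 0.955), *1700037H04Rik* (0.938), *Cfap20* (0.931), *Unc119* (0.926) and *Sprtn* (0.925). *Sept3* encodes a septin known from neurons. The libraries share embryos, so that these values describe 8 libraries of 4 animals. These genes were picked as the highest r of the 9744 tested. Moreover, r draws on the left and right values of *Igfbpl1* by which the family was chosen, so that it is a description with no test. Among the neural tube markers, r was 0.751 for *Msi1*, 0.634 for *Sox3*, 0.60 for *Pax6*, 0.564 for *Sox1*, 0.495 for *Sox2*, 0.263 for *Zic2* and 0.145 for *Nes*, so that the list was not uniformly like *Igfbpl1*. By r, these markers ranked from 147 (*Msi1*) to 3692 (*Nes*) among the other genes tested. Among the IGF genes, r ranged from -0.63 for *Igfbp3* to 0.17 for *Igfbp2*.

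The ligands did not differ detectably between the sides. *Igf2* was at 3328 CPM on the left and 4198 on the right side of L29-3, at 3332 and 3273 in L43-5, at 4261 and 3414 in L46-8, and at 2641 and 2602 in L49-3. The left was higher in 3 embryos and lower in L29-3, and the sides overlapped. The log2 difference of *Igf2*, left minus right, was 0.01 ± 0.0829 (SE), with a 95% interval from -0.17 to 0.19, and the adjusted p was 0.998 (edgeR's quasi-likelihood test, adjusted by Benjamini-Hochberg over all genes, as are the other adjusted p-values). *Igf1* was at 19.3 and 18.9 CPM in L29-3, at 21.7 and 18.0 in L43-5, at 14.6 and 14.8 in L46-8, and at 10.6 and 14.1 in L49-3, with the left first. Its sides overlapped, and the interval of its log2 difference was wider, from -0.43 to 0.49 around 0.03, with between 13 and 64 reads per library.

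The receptors did not differ detectably either. *Igf1r* was at 251 CPM on the left and 236 on the right side of L29-3, at 237 and 192 in L43-5, at 202 and 244 in L46-8, and at 235 and 229 in L49-3, a log2 difference of 0.05 ± 0.0893 (SE), with a 95% interval from -0.15 to 0.24. *Igf2r* was at 906 and 959 CPM in L29-3, at 950 and 869 in L43-5, at 1027 and 701 in L46-8, and at 576 and 681 in L49-3, a log2 difference of 0.09 ± 0.102, with an interval from -0.13 to 0.32. The sides overlapped for both receptors, and *Igf2r* was higher on the left in 2 embryos and lower in 2. Both had an adjusted p of 0.988.

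For the binding proteins other than *Igfbpl1*, the fitted values were slightly above 0. *Igfbp4*, which in many cell types blocks IGF action, was nearest to a difference. It was at 404 CPM on the left and 374 on the right side of L29-3, at 325 and 346 in L43-5, at 427 and 377 in L46-8, and at 320 and 245 in L49-3. Its left was higher in 3 of 4 embryos with overlapping sides, and the log2 difference was 0.13 ± 0.078 (SE), with a 95% interval from -0.04 to 0.30 and an adjusted p of 0.988. *Igfbp5* ranged from 924 to 1212 CPM on the left and from 877 to 1115 on the right, with a log2 difference of 0.09 and an interval from -0.10 to 0.27. *Igfbp2* ranged from 115 to 140 CPM on the left and from 115 to 126 on the right, with a difference of 0.05 and an interval from -0.13 to 0.23. *Igfbp3* ranged from 29.4 to 48.8 CPM on the left and from 30.9 to 45.0 on the right, with a difference of 0.09 and an interval from -0.25 to 0.43.

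Of the 8 genes tested besides *Igfbpl1*, 0 passed an adjusted p of 0.05 and 0 an unadjusted p of 0.05 in edgeR, and 0 passed the threshold of the study, against 3.05% of all genes. DESeq2 and limma-voom also gave 0 under both thresholds. None of the 8 had a higher left in every embryo, against 6.26% of all genes, and none had sides that did not overlap, against 2.5% of all genes in either direction. All 8 fitted differences were above 0, between 0.01 and 0.13, where 48.6% of all genes tested had a fitted value above 0. The sign of *Igfbp2* and *Igfbp4* held without any 1 embryo, and that of the other 6 genes turned when 1 embryo was left out. The median size of the 8 differences was 0.07 on the log2 scale, and that over all genes was 0.09.

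**Figure D4:**
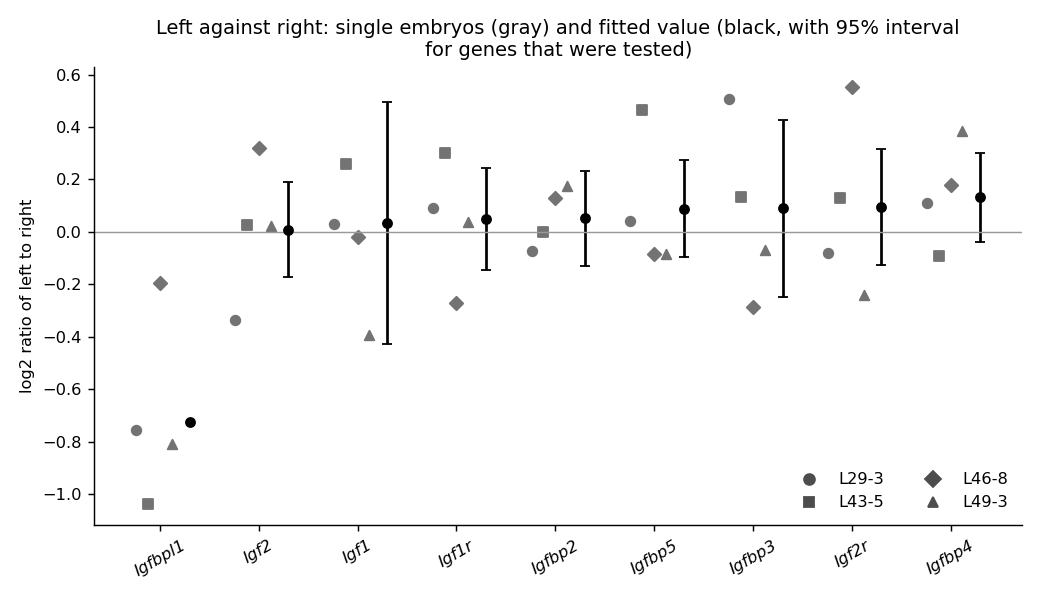
Log2 difference of left minus right in the IGF family, with a gray point for each of the 4 embryos and a black point for the fitted value, and a 95% interval for the genes that were tested. The 4 points of *Igfbpl1* lie between -1.04 and -0.19, and the intervals of the other 8 genes include 0.

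Differences between embryos did not enter the choice of genes. The fitted levels of the 4 embryos spanned 0.55 on the log2 scale for *Igf2*, 0.57 for *Igf2r*, 0.51 for *Igfbp4* and 0.64 for *Igfbpl1*. These 4 of 9 genes had an unadjusted p under 0.05 in edgeR's quasi-likelihood test of the embryo, against 10% of all genes. After adjustment 0 of 9 passed 0.05, against 0.174% of all genes, and the adjusted p was 0.161 for *Igf2*, 0.176 for *Igfbp4*, 0.275 for *Igf2r* and 0.466 for *Igfbpl1*. DESeq2 gave 1 member past 0.05, *Igf2*, against 0.523% of all genes in that tool, and limma-voom gave 0, against 0.041%. *Igf1*, *Igf1r*, *Igfbp2*, *Igfbp3* and *Igfbp5* did not pass at the unadjusted level.

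Embryo L49-3 was the lowest for several members. Both of its libraries were the lowest of the 8 for *Igf1*, *Igf2*, *Igf2r*, *Igfbp3* and *Igfbp4*, so that 5 of 9 members had this pattern, which 9.39% of all genes shared and which was chosen after the values were seen. In the other embryos, *Igfbp2* in L43-5 was the 1 member with both libraries below all others, a pattern that 3.3% of all genes had in that embryo. Its values there, 115.2 and 115.1 CPM, were close to the 116.9 on the right of L46-8. The mean in L49-3 over that of the other 3 embryos was 0.721 for *Igf2*, 0.697 for *Igf2r*, 0.753 for *Igfbp4*, 0.691 for *Igf1* and 0.702 for *Igfbp3*. It was 1.49 for *Igfbpl1*, and 1.02 for *Igf1r* and *Igfbp5*. Without L49-3, the span over embryos fell from 0.55 to 0.22 for *Igf2* and from 0.57 to 0.12 for *Igf2r*. It fell from 0.51 to 0.26 for *Igfbp4* and from 0.64 to 0.18 for *Igfbpl1*. L49-3 was the lowest or the highest embryo for these genes, so that leaving it out had to narrow the span.

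Depth and markers of several tissues also differed in L49-3. Its 2 libraries had the lowest totals, 1147446 being the right. The 5 markers of the juxta-cardiac field, a progenitor region beside the heart tube, summed to 80.8 CPM on its left and 97.0 on its right, against 259 to 453 in the other embryos. The lists of other tissues with both L49-3 libraries below all others were endothelium (435 and 328 CPM, against 507 to 575), foregut endoderm (262 and 209, against 283 to 375) and surface ectoderm (732 and 831, against 870 to 1049). The cardiomyocyte list was at 374 and 1206 CPM, which overlapped the 1063 to 2987 of the other embryos. The second heart field list, at 526.5 and 552.7 CPM, was within the 388.4 to 556.5 of the other embryos. The lists of paraxial mesoderm and cranial neural crest were also within the range of the other embryos. The neural tube list was higher than in the others, at 653 and 735 against 324 to 530. The part of these tissues and of depth in the embryo differences was not tested.

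**Figure D5:**
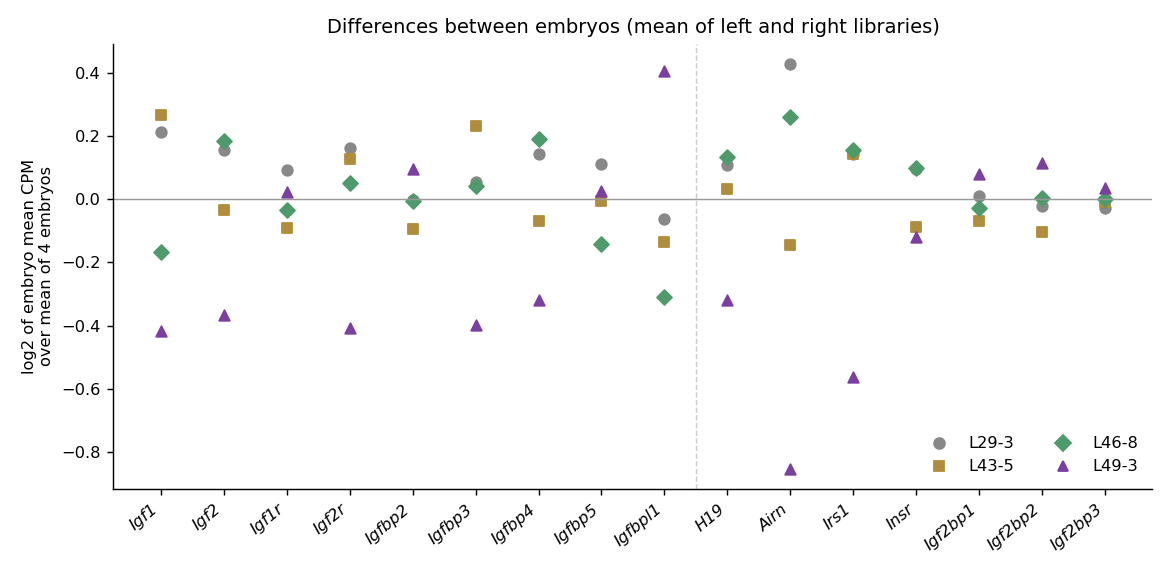
Mean CPM of both libraries of an embryo over the mean of the 4 embryos, on the log2 scale, with 1 point per embryo and gene and the IGF genes left of the dashed line. L49-3 is the lowest for *Igf2*, *Igf2r*, *Igfbp4* and, right of the line, for *H19*, *Airn* and *Irs1*, and the highest for *Igfbpl1*.

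The imprinted neighbours were also lowest in L49-3. *H19*, the maternally expressed RNA beside *Igf2*, had between 1.22 and 1.37 times the reads of *Igf2* in the 8 libraries. Per kilobase of exon, *H19* was between 2.835 and 3.192 times as high as *Igf2*. *H19* was at 3497 and 3473 CPM in L49-3 against 4123 to 5257 in the other embryos. *Airn*, the paternally expressed antisense RNA of *Igf2r*, was at 13.1 and 15.0 CPM in L49-3 against 19.7 to 36.4, and shares no exon bases with *Igf2r*. The embryo test gave an adjusted p of 0.247 for *H19* and 0.210 for *Airn*. Their log2 differences between the sides were -0.00 and 0.28. *Igf2* shares 98 exon bases with *Igf2os* on the opposite strand, and whether the counting used strand is not given in the sources used here.

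The other genes of the pathway gave no larger share of side differences than the background. Of 54 genes in lists of the rest of the family, the proteases of binding proteins and their inhibitors, the *Igf2* locus and RNA-binding proteins, and signaling downstream of the receptors, 45 were tested. 0 passed an adjusted p of 0.05, 1 passed the threshold of the study with higher values on the left, and 0 with lower values, against 3.05% of all genes. That gene was *Rps6kb2*, which encodes an S6 kinase downstream of mTOR. It was at 25.3 CPM on the left and 15.0 on the right side of L29-3, at 30.3 and 23.9 in L43-5, at 27.9 and 27.6 in L46-8, and at 32.7 and 20.3 in L49-3. Each embryo had more on its left, by the least in L46-8, and the sides overlapped. The log2 difference was 0.41 ± 0.183 (SE) and the adjusted p 0.988, and DESeq2 and limma-voom gave 0 pathway genes past the threshold, against 0.606% and 3.09% of all genes. *Rps6kb2* shares 1224 exon bases with *Ptprcap* on the opposite strand.

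In the rest of the family, *Insr* was the only 1 of 7 genes with enough reads for the test, with a log2 difference of 0.21 ± 0.12 (SE) and an adjusted p of 0.988. *Igfbp1* had 3 reads in all, *Igfbp6* 19, *Igfals* 28 and *Insrr* 33, and *Ins1* and *Ins2*, the insulin genes, had 0. The RNA-binding proteins of *Igf2* mRNA were well expressed, with *Igf2bp1* at 104.5 ± 4.65, *Igf2bp2* at 71.1 ± 4.46 and *Igf2bp3* at 31.1 ± 0.579 CPM per kilobase (SD, n = 4 embryos). *Igf2bp3* shares 1529 exon bases with *Malsu1* on the opposite strand. The signaling list had 21 of 36 tested genes fitted above 0 and 15 below, with a median of 0.02, where 48.6% of all genes tested were above 0.

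Between embryos, 5 of the 45 genes had an unadjusted p under 0.05, against 10% of all genes, and 0 passed after adjustment. They were *Airn*, *H19*, *Irs1*, *Foxo3* and *Stc1*. *Irs1*, an adaptor that couples IGF1R to phosphoinositide 3-kinase, was at 31.8 and 35.3 CPM in L49-3 and between 52.4 and 57.8 in the other 6 libraries, with a span of 0.72 and an adjusted p of 0.259. Without L49-3 the span of *Irs1* was 0.02, where leaving out the lowest embryo had to narrow it. *Foxo3*, a transcription factor restrained by this signaling, spanned 0.57 over the embryos, and *Stc1*, which encodes a stanniocalcin, spanned 1.51.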

How the data were processed

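The deposited table holds raw counts for each gene. To obtain them, the authors mapped read pairs with Hisat2 (GRCm38), discarded duplicates and ran featureCounts; the submitters' notes also name DESeq2 and limma 3.40.6. From these counts, the 9744 genes reaching 20 DESeq2-normalized counts in 4 or more of 8 libraries were fitted with edgeR 4.0.16 in R 4.3.3 (TMM, quasi-likelihood test, embryo as a block, Benjamini-Hochberg adjustment over all genes). Both sides of an embryo come from the same animal, which pairs the libraries. The correlation of their deviations was 0.167 for L29-3, 0.187 for L43-5, -0.0221 for L46-8 and 0.431 for L49-3. Embryos were compared by an F-test of the 3 embryo terms, with side as a covariate. No pair of libraries differed by as little as sampling noise (lowest chi-square per degree of freedom 1.93).

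The fits were repeated with size factors of DESeq2, with library size only, unfiltered, with 10 or more counts required in all libraries, in DESeq2 1.42.0, in limma-voom (3.58.1), without the block and without each embryo. On simulated data with 9744 genes, edgeR recovered 99.5% of 200 genes changed between sides by a median of 1.58 on the log2 scale, with 9 false calls; smaller changes were not simulated. Ratios of single embryos use a pseudocount of 0.5 CPM. The genes, the pathway and marker lists, and the tests were chosen with earlier results of these data known. Named genes are the members, pathway genes past the threshold of the study, the 5 pathway genes of smallest p between embryos, *H19*, *Airn*, *Insr*, *Igf2bp1*, *Igf2bp2* and *Igf2bp3*, and the 5 genes of highest r with *Igfbpl1*. Past the threshold of the study were 0 genes in the marker lists of surface ectoderm (7 tested), foregut endoderm (7) and endothelium (8). Paraxial mesoderm (5 tested) and cranial neural crest (1) also had 0, against 3.05% of all genes. With so few genes tested, these counts say little about the sides of those tissues. The primitive blood list had 0 tested genes, so that it could give no call.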

Additional observations from a re-analysis of the deposited data

Results flagged for a closer look

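*Irs1* in embryo L49-3 lay far from the other 3 embryos on both sides. On the left it was at 31.83 CPM, where the others were between 55.8 and 57.8, and on the right at 35.26 CPM, where the others were between 52.4 and 53.5. These were 2 of 51 groups of 4 values examined, and chance gives about 1 in 20, so that the share is no larger than chance gives. Both are the same gene in the same embryo and are not separate events. A cause was not tested.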

How the results depend on the processing

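Counts of reads limit the members of low level most, with 13 to 64 reads per library for *Igf1*. Of the 8 tested members besides *Igfbpl1*, which was given no test, 0 passed an adjusted p of 0.05 or the threshold of the study for left against right under the alternatives, including no replicate block. *Igfbp4* had an unadjusted p of 0.0450 with no filter and 0.0225 without L43-5 in edgeR, with an adjusted p of 0.997 and 0.970. The fitted difference of *Igfbpl1* was between -0.89 and -0.59 over the alternatives. *Igfbpl1* was chosen as lower on the left in every embryo, so that leaving out 1 embryo could not turn its sign. This range is a description and no support for the side difference. Members past an adjusted p of 0.05 between embryos, 0 in edgeR, were 3 with no filter (*Igf2*, *Igf2r*, *Igfbp4*), 1 with DESeq2 (*Igf2*) and 0 to 2 with 1 embryo left out, the 2 being *Igf2* and *Igf2r* without L46-8. The share of all genes rose too, from 0.174% to 2.69% with no filter, 0.523% with DESeq2 and 2.42% without L46-8. Pathway genes between embryos were 0, with 3 under no filter and 0 to 1 with 1 embryo left out, the 1 without L46-8.

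Pathway genes past the threshold of the study between sides, 1 with the embryo as a block, were 0 with no replicate block, 0 with DESeq2 or limma-voom, 2 with library size alone or no filter, and 1 to 3 with 1 embryo left out, being 2 without L29-3 and 3 without L46-8. The share of all genes past this threshold was 3.05% with the block, 2.39% without it, 0.606% with DESeq2, 3.09% with limma-voom, 3.11% with library size alone, 2.88% with no filter, 3.61% without L29-3 and 3.96% without L46-8. Without the block 0 of all genes passed an adjusted p of 0.05 between sides, where 1 did with it, and no call of a tested member changed. The cause of these changes was not tested.

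With 1 embryo left out, the log2 difference ranged from -0.0914 to 0.114 for *Igf1*, -0.0963 to 0.125 for *Igf2*, -0.0484 to 0.155 for *Igf1r*, -0.0575 to 0.197 for *Igf2r*, -0.0494 to 0.217 for *Igfbp3*, -0.0397 to 0.147 for *Igfbp5*, -0.0869 to 0.119 for *H19* and -0.0273 to 0.0110 for *Igf2bp1*. That of *Igf1* was -0.00203 with DESeq2. That of *H19*, at -0.00015, became 0.00275 with DESeq2 size factors, 0.0128 with library size alone, 0.0137 with no filter, 0.00205 with at least 10 counts and 0.00101 with limma-voom, and that of *Igf2bp1*, at -0.0136, became 0.000356 with no filter.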
